A study of Mus musculus with 10 samples.

Results

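The genes described here are 43 genes of DNA replication and S phase, the part of the cell cycle in which chromosomes are copied, in 5 mouse mammary tumour cell lines. They were chosen as a list of symbols, with earlier results of these data known, so the list is not independent of the data. A probe set counted when it carried that symbol alone and was brighter than the 40th percentile of the array on 2 or more arrays. Of the 43 genes, 42 were measured. They had 84 of the 32978 probe sets kept, and 14840 genes were tested in all. Chaf1a had no probe set with that symbol alone. Line E, which is epithelial, is from a mammary adenocarcinoma that arose spontaneously in a female FVB/N-TgN(MMTVneu)202Mul mouse. That strain carries a neu transgene behind a viral promoter active in the mammary gland. The mesenchymal lines M1 to M4 each came from a tumour that relapsed in a female FVB/N mouse after injection of E cells, so all 5 lines share the E origin. Each line had 2 arrays; the labels do not say whether these were separate cultures, or whether the 4 relapses came from separate mice. Cells were cultured in RPMI with 10% serum on 10 cm dishes to 80% confluence, and no age of the animals is given in the labels.

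Replication begins with licensing, in which the origin recognition complex, Cdc6 and Cdt1 load the ring-shaped MCM helicase onto DNA in G1 and geminin blocks reloading later. At S-phase entry kinases and loading factors join Cdc45 and the GINS complex to the ring, and polymerases, the sliding clamp PCNA and its loader RFC then copy the strands from deoxynucleotides made on demand. Most of these genes are transcribed under E2F factors around the passage from G1 to S, and cyclin E with its kinase drives that passage, so their RNA is usually abundant in dividing cells and scarce in resting ones. The set is therefore widely read as a measure of proliferation in tumours and cultures.

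Signals are probe set intensities after quantile normalization, and changes are differences of log2(signal + 32) fitted with limma over all 14840 genes. A gene was called, and is said to have risen or fallen, when its Benjamini-Hochberg adjusted p was under 0.05 and its change at least 2-fold. The correlation across genes was 0.993 to 0.995 between both arrays of the same line. The deposited signals were not on 1 scale: their trimmed means lay between 182 (M4 replicate 1) and 300.5 (E replicate 1). Of 8 epithelial markers the summed signal was 53522 to 53764 on the E arrays and 42.7 to 599 on the M arrays, 119.5 to 144 in M3, where none of the 8 exceeded 100. The sum of 8 mesenchymal markers lay at 9407 to 9626 in E but at 28124 to 42736 on M arrays, M3 lowest, and all 8 exceeded 100 in M3. Of 10 leukocyte markers 7 were measured, with a summed signal of 682 to 809.6 in M3, 745 to 1101 in the other M lines and 7138 to 7560.1 in E, most of the last from Cd14 at 6985 and 7374. Ptprc, which marks all leukocytes, was at 10.5 and 10.2 in M3; the 4 measured of 7 endothelial markers summed to 71.2 to 90.8 there.

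Line M3 had far lower signals of replication genes than the other 4 lines. Of the 42 measured genes 35 fell in M3 against E and none rose (0 higher at an unadjusted p under 0.05 in limma), where 11.7% of all genes tested were called lower and 12.1% higher. Their median log2 change was -1.98, beside 0.059 for all genes. Tk1, encoding the thymidine kinase of dividing cells, and Rrm2, the small subunit of ribonucleotide reductase, fell most, by 4.54 and 3.90 on the log2 scale. On both M3 arrays 40 of the 42 genes lay below all 8 other arrays, which 11.4% of all genes did, and the 2 exceptions were Gins3 and Gins4. On both M3 arrays 0 of the 42 lay above all others (15.4% of all genes). In bulk RNA fewer cells in S phase and less RNA per cell cannot be told apart.

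**Figure D1:**
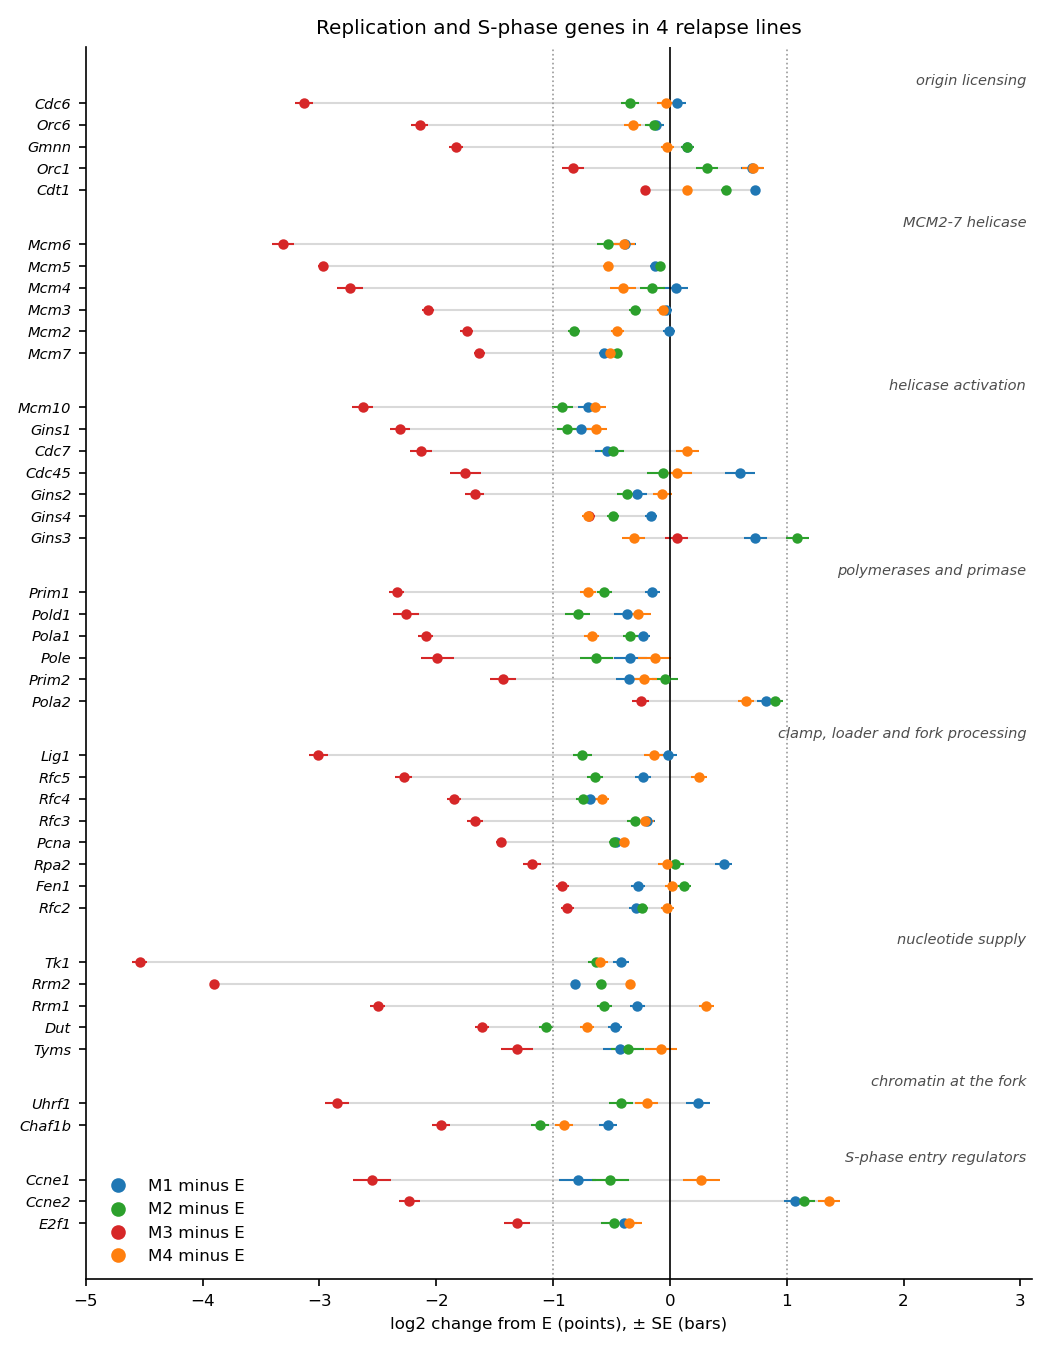
Log2 change from E, on the horizontal axis, of each of the 42 measured genes in M1, M2, M3 and M4, grouped by role; bars are standard errors of the limma fit with 2 arrays per line, and dotted lines mark 2-fold. The M3 points lie left of the others for 40 genes and past the 2-fold line for 35, while M1, M2 and M4 mostly lie between the dotted lines.

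In the other relapse lines few of these genes passed the 2-fold limit. In M1 0 of 42 fell and 1 rose (9.4% and 10.2% of all genes tested), in M2 2 fell and 2 rose (8.75% and 10.1%), and in M4 0 fell and 1 rose (9.51% and 10.4%). The median changes were -0.25 in M1, -0.44 in M2 and -0.22 in M4. Smaller shifts were frequent: without the fold minimum, limma had 25 lower and 8 higher in M1 (27.4% and 28.6% of all genes), 29 and 6 in M2 (27.4% and 28%) and 20 and 6 in M4 (27.9% and 29.5%). At an unadjusted p under 0.05 it had 27 and 9 in M1 and 21 and 6 in M4. By adjusted p without the fold minimum 41 of the 42 were lower in M3 (28.3% of all genes), and 14 were lower in all 4 M lines, as 16.3% of all genes were. The error behind these p-values is the difference between 2 arrays of the same line, and this may be technical.

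**Figure D2:**
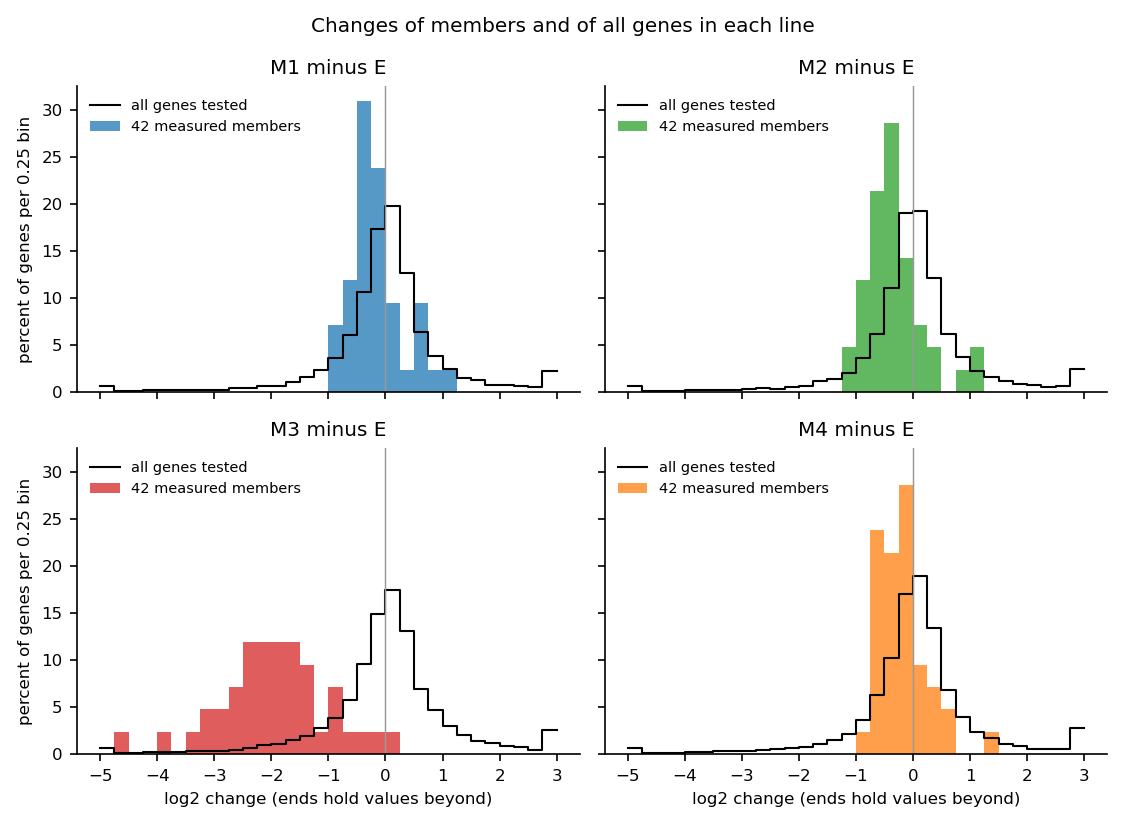
Distribution of log2 changes from E in each M line, as percent of genes per bin of 0.25, for the 42 measured replication genes (bars) and all 14840 genes tested (line). The bars centre near -0.25, -0.44 and -0.22 in M1, M2 and M4, and in M3 they spread around -1.98, while the median of all genes is 0.016 to 0.059.

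The ratio of 3' to 5' signal of the labelling control Actb was 1.29 and 1.38 on the M3 arrays and 1.16 to 1.25 on the other 8, and that of Gapdh was 0.79 and 0.77 in M3 and 0.81 to 0.85 elsewhere. The M3 arrays were thus highest for Actb and lowest for Gapdh, so the ratios moved in opposite directions. The part of these differences in the lower replication signals was not tested. Of the 7 measured leukocyte markers Cd68 and Lyz2 rose in M3 (1.29 and 1.55), to signals of 141 and 173 and 136 and 154. Cd68 also rose in M4 (1.40), though with the deposited scaling Cd68 was called in neither (0.87 and 0.89). The summed signal of the 7 was nevertheless lower in M3 (682 to 809.6) than in E (7138 to 7560.1), most of the latter from Cd14. Whether any leukocyte RNA had a part in the result was not tested.

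Of the 5 licensing genes 3 fell in M3, Cdc6 (-3.13 ± 0.077, SE), Orc6 (-2.14 ± 0.073) and Gmnn (-1.83 ± 0.057). Cdc6, the ATPase that loads the helicase with Cdt1, had signals of 556 and 589 on the E arrays, 609.8 and 587 on those of M1, 455 and 436 for M2, 40.2 and 34.1 for M3 and 551 and 565 for M4. Both M3 values were far under those of every other array, whereas E, M1 and M4 overlapped and M2 lay slightly below them. Gmnn, which encodes the licensing inhibitor geminin, was at 1342 and 1401 on the E arrays, 1521 and 1537 on those of M1, 1454 and 1599 for M2, 367 and 356 for M3 and 1345 and 1354 for M4, with both M3 arrays far below the rest and M1 and M2 slightly above E. Cdt1, the partner that geminin binds, did not follow: its signals were 2499.6 and 2538 on the E arrays, 4115 and 4273 on those of M1, 3529.8 and 3519.5 for M2, 2160.2 and 2181 for M3 and 2796 and 2817 for M4. The change of Cdt1 was -0.21 ± 0.039 in M3, inside the fold limit, and it was highest in M1 (0.73 ± 0.039). Orc1, the largest subunit of the origin recognition complex, was also not called, with 0.70 (M1), 0.32 (M2), -0.83 (M3) and 0.71 (M4).

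The 6 subunits of the MCM2-7 ring all fell in M3, with a median of -2.41, and none was called in M1, M2 or M4; without the fold minimum, limma had 3 of them lower in M1, 4 in M2 and 5 in M4. Mcm6 was at 3128 and 3349 on the E arrays, 2499.6 and 2473 on those of M1, 2429 and 2046 for M2, 322 and 274 for M3 and 2672 and 2276 for M4, and Mcm5 at 4273 and 4413 on the E arrays, 3919 and 4009 on those of M1, 4170.2 and 4003 for M2, 530.3 and 526 for M3 and 3013 and 2994 for M4. Both fell about as far, -3.31 ± 0.093 and -2.97 ± 0.042, and the M1 and M2 arrays of Mcm5 lay just under those of E. Mcm4 had 2529.8 and 1918 on the E arrays, 2284 and 2277 on those of M1, 2086 and 1874 for M2, 281 and 325 for M3 and 1738 and 1578 for M4, with the E arrays further apart than those of any other subunit. Mcm3, at 2365 and 2272 on the E arrays, 2276 and 2254 on those of M1, 1974 and 1795 for M2, 536 and 517 for M3 and 2241 and 2212 for M4, fell by 2.07 in M3 while M1, M2 and M4 changed by -0.033, -0.30 and -0.057. Mcm2 gave 1409.5 and 1410.5 on the E arrays, 1415 and 1388 on those of M1, 774 and 799 for M2, 394 and 408 for M3 and 1002 and 1042 for M4, with M2 also below E, M1 and M4 and inside the fold limit (-0.82). Mcm7 had the smallest fall of the ring, -1.63 ± 0.044: its signals were 6724 and 6304 on the E arrays, 4413 and 4377 on those of M1, 4733 and 4752 for M2, 2106 and 2067 for M3 and 4413 and 4711 for M4, and every M array lay below both E arrays.

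Of the 7 genes of helicase activation 5 fell in M3: Mcm10 (-2.63), Gins1 (-2.31), the kinase gene Cdc7 (-2.13), Cdc45 (-1.75) and Gins2 (-1.67). Mcm10, which helps the ring to start unwinding, had signals of 584 and 561 on the E arrays, 357 and 323 on those of M1, 272 and 302 for M2, 62.0 and 68.8 for M3 and 371 and 343 for M4, in order high in E, intermediate in M1, M2 and M4, and low in M3. Gins1 showed the same order, with 809 and 883 on the E arrays, 477 and 498 on those of M1, 404 and 491 for M2, 149 and 142 for M3 and 546 and 521 for M4. The 4 GINS subunits, which form 1 complex, did not move together. Gins4 changed by -0.16 (M1), -0.49 (M2), -0.69 (M3) and -0.70 (M4), and M3 minus M4 was 0.01 ± 0.052 (limma adjusted p = 0.903). Gins3 was at 119 and 134 on the E arrays, 228 and 234 on those of M1, 317 and 294 for M2, 135 and 131 for M3 and 99.5 and 91.4 for M4. It rose in M2 (1.09 ± 0.098) and its M3 arrays lay at the level of E (0.06 ± 0.098, limma adjusted p = 0.636). With the deposited scaling Gins3 was not called in M2 (0.86) and was -0.44 in M3 (limma adjusted p = 0.0235). The other kept Gins3 probe set gave 0.99 in M2, just inside the fold limit, and -0.083 in M3.

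Of the 6 polymerase and primase genes 5 fell in M3, by 1.43 to 2.34, among them both primase subunits, which make the RNA primers, and the catalytic subunits of the 3 replicative polymerases. Prim1 was at 1672 and 1715 on the E arrays, 1620.2 and 1433 on those of M1, 1087 and 1188 for M2, 303 and 316 for M3 and 1040.2 and 1015 for M4. M2 and M4 had lower Prim1 signals than E and M1, and M3 lay well below them. Pola1, Pold1 and Pole, for polymerases alpha, delta and epsilon, changed in M3 by -2.09, -2.26 and -1.99. The accessory subunit of polymerase alpha, Pola2, went another way: it was higher than E in 3 lines, with 0.82 in M1, 0.90 in M2 and 0.65 in M4, below the fold limit in each, and changed by -0.25 ± 0.071 in M3.

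Of 8 genes for the clamp, its loader and fork processing, 6 fell in M3. Lig1, the ligase that joins Okazaki fragments, had signals of 1084 and 1031 on the E arrays, 1034 and 1057 on those of M1, 666 and 567 for M2, 102 and 103 for M3 and 916 and 1004 for M4, and it fell by 3.01 in M3, the furthest of this group. Pcna, the sliding clamp, had 11313 and 11472 on the E arrays, 8309 and 8217 on those of M1, 7891 and 8465 for M2, 4135 and 4163 for M3 and 8602 and 8721 for M4. All 8 M arrays lay below E for Pcna, M3 lowest (-1.45 ± 0.037) and the others at -0.46 in M1, -0.48 in M2 and -0.39 in M4. Of the loader subunits Rfc5 (-2.28), Rfc4 (-1.85) and Rfc3 (-1.67) fell, while Rfc2 (-0.88) stayed inside the fold limit. Rfc4 gave 1035 and 1058 on the E arrays, 619.9 and 664 on those of M1, 620.2 and 607 for M2, 264 and 271 for M3 and 676 and 702 for M4, below E on every M array. Rpa2, a subunit of the single-strand binding protein, fell in M3 (-1.18). Fen1, the flap nuclease, changed by -0.92 ± 0.059 in M3, and its other probe set fell by 1.55.

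The 5 genes of nucleotide supply all fell in M3, with a median of -2.50, and held the 2 largest changes of the whole set. Tk1 had signals of 1982 and 2037 on the E arrays, 1509 and 1472 on those of M1, 1231 and 1344 for M2, 60.1 and 51.3 for M3 and 1278 and 1351 for M4. The M3 arrays were far below all 8 others, which spanned 1231 to 2037. Rrm2 was at 7041 and 7049 on the E arrays, 3922 and 4078 on those of M1, 4590.4 and 4747 for M2, 444 and 439 for M3 and 5554 and 5594 for M4, with close pairs in each line and M3 far under the rest. Its partner Rrm1, the large reductase subunit, had 2264 and 2652 on the E arrays, 1995 and 2029.6 on those of M1, 1662 and 1632 for M2, 418 and 398 for M3 and 3099 and 3006 for M4. It was highest in M4 (0.31 ± 0.065) and fell in M3 (-2.50 ± 0.065). Dut, which removes dUTP, had 2448 and 2259 on the E arrays, 1700.0 and 1682 on those of M1, 1117 and 1111 for M2, 794 and 709 for M3 and 1447 and 1398 for M4, and fell in both M2 (-1.06 ± 0.061) and M3 (-1.61 ± 0.061). Tyms, thymidylate synthase, had low signals throughout, from 11.6 to 15.8 in M3 and 78.9 to 83.5 in E, and its change was -1.31. It was inside the fold limit and not called with the larger pseudocount (-0.56) or with values below 64 set to 64 (-0.34), and -2.05 with the smaller pseudocount of 8.

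Both measured genes for chromatin at the fork fell in M3. Chaf1b, a subunit of the assembly factor CAF-1, was at 871 and 849.9 on the E arrays, 582 and 586 on those of M1, 355 and 410.3 for M2, 206 and 191 for M3 and 437 and 449 for M4. Every M array lay below E, and it also fell in M2 (-1.11 ± 0.077). Uhrf1, which guides maintenance methylation to new strands, fell by 2.85 in M3 and changed by 0.24 in M1, -0.42 in M2 and -0.20 in M4. The 3 regulators of S-phase entry fell in M3 too, but with different patterns elsewhere. E2f1, the transcription factor, had 419 and 412 on the E arrays, 328 and 291 on those of M1, 270.4 and 308 for M2, 167 and 132 for M3 and 334 and 302 for M4, and fell by 1.31 in M3. For Ccne1, which encodes cyclin E1, the signals were 944 and 608 on the E arrays, 443 and 411 on those of M1, 564 and 488 for M2, 89.6 and 117 for M3 and 949 and 890.4 for M4. The E arrays differed between themselves, and the M4 arrays lay near the higher of them. The other cyclin E gene, Ccne2, was at 244 and 281 on the E arrays, 564 and 607 on those of M1, 615 and 627 for M2, 35.4 and 26.4 for M3 and 727 and 721 for M4. It rose in M1 (1.07 ± 0.093), M2 (1.15 ± 0.093) and M4 (1.36 ± 0.093) and fell in M3 (-2.23 ± 0.093), the 1 gene of the 42 called in both directions among the lines. Under the deposited scaling the rises of Ccne2 were not called.

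**Figure D3:**
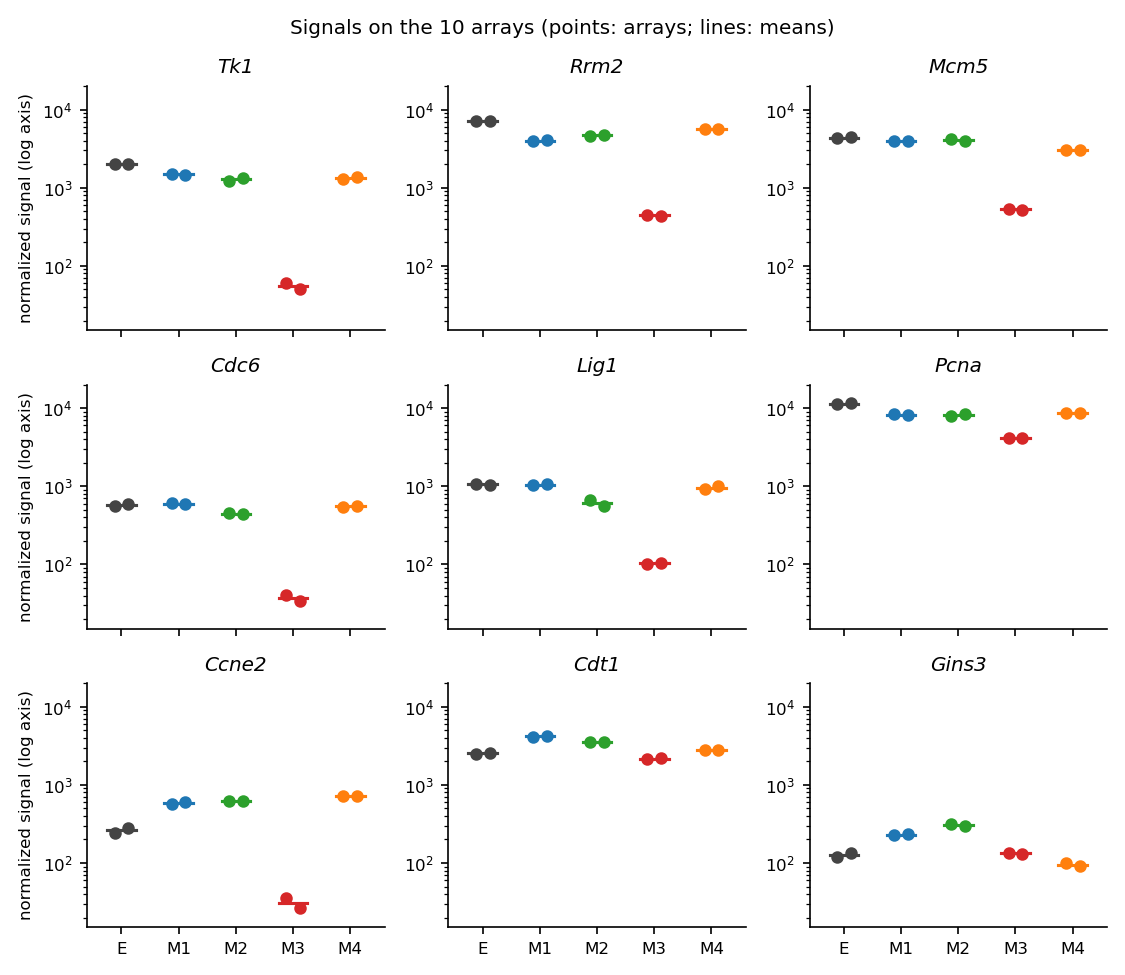
Normalized signal on a log axis for 9 genes on each of the 10 arrays; points are arrays and short lines are means of the 2 arrays of a line. Tk1, Rrm2, Mcm5, Cdc6 and Lig1 are far lower in M3 than on any other array, Pcna is lower in all M lines and lowest in M3, Ccne2 is above E in M1, M2 and M4 and below it in M3, and Cdt1 and Gins3 are not called in M3.

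Averaging the 4 M lines and comparing them with E gives 1 mean change per gene, which a single line can drive. By that contrast 6 of 42 genes fell and none rose (8.83% and 9.64% of all genes). At an unadjusted p under 0.05, limma had 37 lower and 5 higher, the same counts as by adjusted p without the fold minimum (29.5% and 31.4% of all genes). The 6 were Tk1 (-1.55 ± 0.053), Rrm2 (-1.41 ± 0.031), Mcm10 (-1.22 ± 0.071), Mcm6 (-1.15 ± 0.074), Gins1 (-1.14 ± 0.071) and Chaf1b (-1.13 ± 0.061). Which genes fell depended on the probe set. Another one was called lower for Mcm4 (-1.17), Mcm5 (-1.17), Tyms (-1.20), Pold1 (-1.04), Prim1 (-1.02), Ccne1 (-1.02) and Rrm1 (-1.01). The dimmer probe sets of Mcm10, Gins1 and Chaf1b were not called. After leaving out M3, 0 fell and 1, Ccne2, rose (9.04% and 9.79%), with a median of -0.27, and limma had 31 lower and 7 higher at an unadjusted p under 0.05. The lowest values were then those of Chaf1b (-0.85), Gins1 (-0.76), Mcm10 (-0.75), Dut (-0.75) and Rfc4 (-0.67). Without M1, M2 or M4 in place of M3, 17, 14 and 18 genes fell, and without E replicate 2 10 did. The shares of all genes at these settings are not given here. When limma was fitted to 5 line means, so that the spread between M lines was the error, 0 of 42 were called where 10.2% of all genes were, the smallest adjusted p was 0.268 (Dut) and 0 had an unadjusted p under 0.05.

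The scaling of the arrays changed the mean contrast but not the place of M3. With the deposited signals, where the median of all genes moved to -0.21 in the mean contrast and -0.35 in M4, the genes that fell numbered 26 (mean), 1 (M1), 6 (M2), 39 (M3) and 11 (M4), beside 14.5%, 12.5%, 11.8%, 19.8% and 20.1% of all genes. Of all genes called in the mean contrast 66.4% were lower, against 47.8% after quantile normalization. Scaling to a common trimmed mean, to the hybridization controls or by cyclic loess gave 35 in M3 each time and 6 in the mean. The 4 genes that fell in M3 only with the deposited signals were Orc1 (-1.31), Gins4 (-1.19), Rfc2 (-1.39) and Fen1 (-1.39). Besides Tyms, calls in M3 were lost for Rpa2 (-0.93) and E2f1 (-0.97) with the larger pseudocount, and for Cdc45 (-0.97), Chaf1b (-0.72) and E2f1 (-0.97) when probe sets of a gene were averaged.

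**Figure D4:**
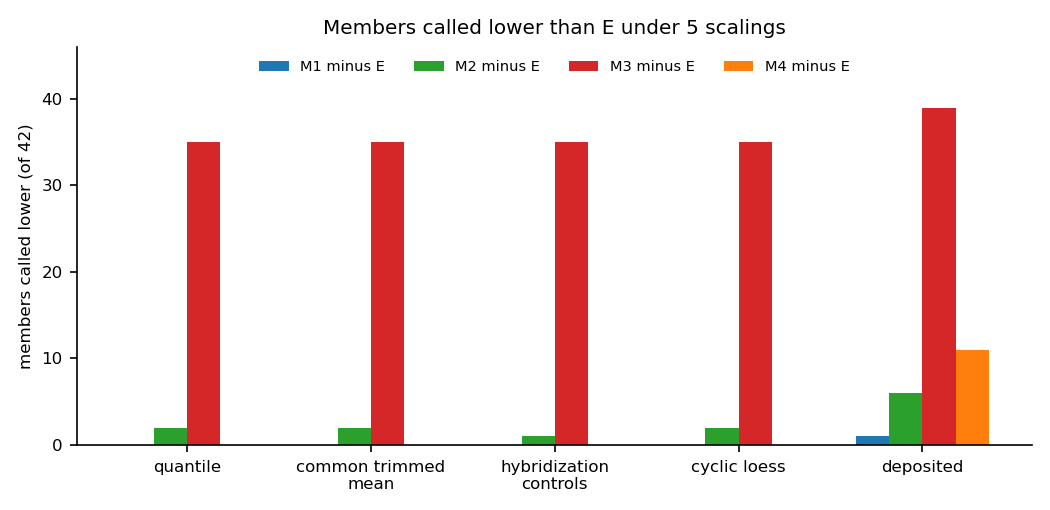
Number of the 42 measured genes called lower than E in M1, M2, M3 and M4 under 5 ways of scaling the arrays. The M3 bars stand at 35 under 4 scalings and at 39 with the deposited signals, under which M4 rises from 0 to 11.

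Comparing the relapse lines with each other leaves E out of the differences. The E arrays still entered the normalization, the filter, the choice of probe set and the error of the fit. All 42 genes differed across the 4 M lines by the moderated F test (limma, adjusted p at most 2.9e-05), but so did 64% of all genes, and across M1, M2 and M4 alone 33 of 42 and 55.2%. M1 was higher than M3 for 34 genes (5.05% of all genes), M2 higher than M3 for 33 (3.63%) and M3 lower than M4 for 34 (5.41%), and none was called the other way in these pairs (4.58%, 2.4% and 5.15% of all genes), where at an unadjusted p under 0.05 limma had 1, Gins3 in M3 over M4. A total of 30 genes were lower in M3 than in each of M1, M2 and M4, and 29 of these were also lower than in E. The share of all genes meeting these joint conditions is not given here, and the shares of single pairs do not stand in for it. The 6 that fell against E but not against all 3 other M lines were Mcm2, Pcna, Tyms, Dut, Chaf1b and E2f1. Among M1, M2 and M4 few genes passed: 0 between M1 and M2 (2.58% lower and 1.84% higher in M1; 5 and 18 at an unadjusted p under 0.05 in limma), 1 in each direction between M1 and M4 (3.21% and 2.9%), and 0 lower and 1 higher in M2 than M4 (1.93% and 2.2%, with 22 and 9 at an unadjusted p under 0.05 in limma). These were Gins3, higher in M1 (1.05) and M2 (1.41) than in M4, and Ccne1, lower in M1 than in M4 (-1.05).

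Neighbouring genes of the pathway were read from 4 further lists. Among all genes, 11.7% of all genes were called lower and 12.1% higher in M3, and 8.83% and 9.64% in the mean contrast. Of 42 measured other replication genes 23 fell and 1 rose in M3, with a median of -1.14; in the mean contrast 6 fell and 1 rose. The helicase-nuclease gene Dna2 fell in all 4 lines (-2.37 (M1), -1.66 (M2), -3.49 (M3) and -2.25 (M4)), Pold3 changed by -1.57 and Donson by -1.26 in the mean, and Pold4, the small subunit of polymerase delta, rose in M1, M2 and M4, by 1.70 in M1. With the deposited scaling its M4 change (0.57) and its mean change (0.89) were not called. Orc4, named after its value was seen, was the 1 that rose in M3 (1.14). That change was 0.59 and not called with the deposited scaling. Dbf4, the activator of the Cdc7 kinase, fell in M3 (-1.06), and Orc2 changed by 0.75 in the mean and was not called. Of 16 other genes of nucleotide synthesis 5 fell and 2 rose in M3: Dck, which salvages deoxycytidine, fell by 2.41, and Rrm2b, a reductase subunit used outside S phase, and the mitochondrial kinase gene Tk2 rose (1.27 and 1.02), these 2 named after their values were seen. With the deposited scaling they were 0.72 and 0.50, and neither was called.

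Of 29 other genes of G1/S control 13 fell and 2 rose in M3. Ccna2, for cyclin A2 of S phase, fell in M3 (-2.81) and changed by -0.15 in M1, -0.42 in M2 and -0.34 in M4, and Cdk2, its kinase, changed by -0.47 (M1), -0.37 (M2), -1.15 (M3) and -0.45 (M4). The cyclin D genes moved in opposite directions: Ccnd2 went from 36.4 and 27.6 on the E arrays to line means of 1833 to 4135, a rise of 5.39 in the mean. Ccnd1 fell in the mean (-1.16) but was inside the fold limit in M1 (-0.53). Of the CDK inhibitors Cdkn1b fell (-0.89 (M1), -2.02 (M2), -2.52 (M3) and -1.91 (M4), below the fold limit in M1), Cdkn2a fell from low signals (-1.24) and Cdkn2b rose (1.46), though inside the fold limit in M4 (0.79). Of 29 measured mitosis and spindle genes 28 fell in M3, with a median of -2.45, and Mki67, the proliferation marker, changed by -0.81 (M1), -1.07 (M2), -4.18 (M3) and -1.18 (M4). In the mean contrast 5 mitosis genes fell, among them Kif23 (-1.75), Nusap1 (-1.55) and Ccnb2 (-1.14); without M3 this count was 3 of 29, where 9.04% of all genes were called lower. None of these lists was tested as a set.

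**Figure D5:**
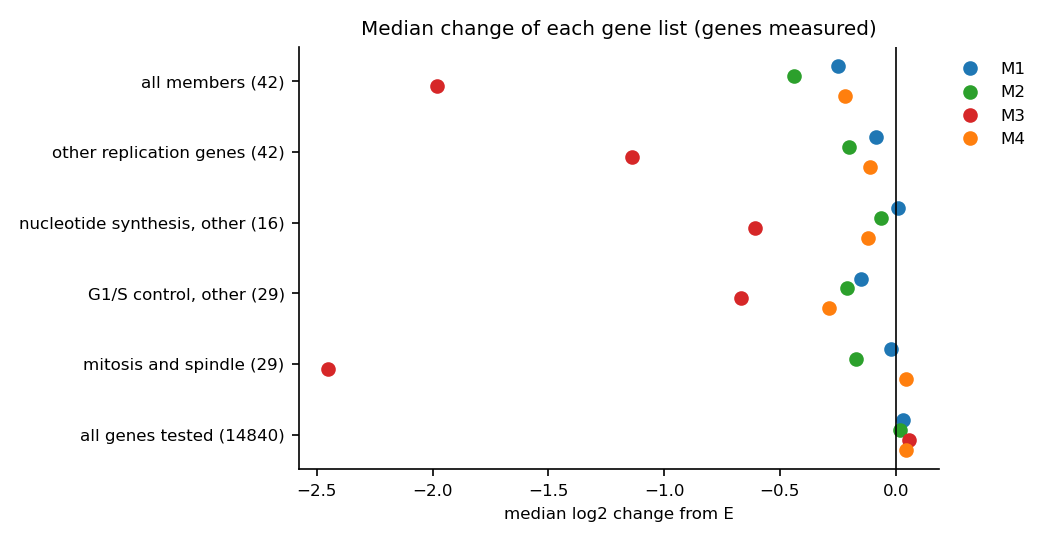
Median log2 change from E in each M line for the 42 measured replication genes, 4 related gene lists and all genes tested, with the number of genes in parentheses. The M3 medians are -1.98 for the replication genes and -2.45 for mitosis genes, and those of M1, M2 and M4 lie between -0.44 and 0.044 for every list shown.

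The 84 kept probe sets include those that stand for the genes above, and 42 were further ones, so their counts are not separate from those of the genes. In M3 63 were called lower and 0 higher. The share over all kept probe sets is not given here, and of all genes tested 11.7% were called lower and 12.1% higher. Of the 21 not called, 11 had a mean signal under 100, near the background, and so did 3 of those called lower. Of the 31 genes with several kept probe sets 10 had both called and uncalled ones in M3, and none had calls in opposite directions. In the mean contrast 10 had both as well, again with none in opposite directions. Pold1, not called in M2 by its brightest probe set, had another that fell there (-1.06). Rfc2 and Fen1, not called in M3 by their brightest probe set, each had another probe set that fell (-1.11 and -1.55). The dimmer Tyms probe set was called lower in all 4 lines, with -1.23 in M2, but its mean signal was only 34.2.

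Because most of these genes moved together in M3, their promoters were read from RefSeq on GRCm38.p6. Each window was 300 bases, from 250 before to 50 after a listed start. That start was not always the outer end of the gene. For Cdc6, Orc1, Lig1 and Fen1, among others, a window with a match lay wholly inside the gene. The arrays have no build of their own. A window was given for 33 of the 42 genes (not for Ccne2, Gins1, Gins2, Gins4, Gmnn, Mcm4, Pole, Prim2 and Rfc2). The letters searched, on both strands, were 4 forms of the E2F recognition sequence, TTTCCCGC, TTTCGCGC, TTTGCCGC and TTTGGCGC, and the same forms without the first T, which contain them. At least 1 of the 8-letter forms was present for 13 of 33 genes (39.4%) and for 2.6% of all 27025 genes with a window, and the 7-letter forms for 21 (63.6%) and 10.9%. CCAAT, the NF-Y box, was present for 18 of 33 (54.5%) and 41.1%. Among genes that fell in M3 10 of 28 had an 8-letter form, and among those not called in M3 3 of 5 (Cdt1, Gins3 and Orc1), and the 7-letter forms 17 of 28 and 4 of 5. A gene with several windows, as some have among the 39, counted when any held the letters, and a match describes letters only.

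The 250 bases before the start are shown for 3 genes with large falls in M3 and an E2F form (Mcm5 at chr8:75109259-75109508 (+), Mcm6 at chr1:128359706-128359955 (-) and Cdc6 at chr11:98907901-98908150 (+)), for the 2 largest falls (Rrm2 at chr12:24708004-24708253 (+) and Tk1 at chr11:117826015-117826264 (-)) and for Gins3 at chr8:95633309-95633558 (+), which holds a form and did not fall. They run 5′ to 3′ on the gene's strand, and capitals mark the 7-letter forms on either strand. The start is the listed one of the window. The Cdc6 stretch therefore lies inside the gene, whose outer end is at 98907709. The Tk1 stretch overlaps the gene, whose outer end is at 117826087.
Mcm5: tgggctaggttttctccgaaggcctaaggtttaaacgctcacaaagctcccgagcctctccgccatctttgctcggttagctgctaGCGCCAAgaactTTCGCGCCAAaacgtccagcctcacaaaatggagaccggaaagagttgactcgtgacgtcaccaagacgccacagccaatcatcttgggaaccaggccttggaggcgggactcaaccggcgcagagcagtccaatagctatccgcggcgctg
Mcm6: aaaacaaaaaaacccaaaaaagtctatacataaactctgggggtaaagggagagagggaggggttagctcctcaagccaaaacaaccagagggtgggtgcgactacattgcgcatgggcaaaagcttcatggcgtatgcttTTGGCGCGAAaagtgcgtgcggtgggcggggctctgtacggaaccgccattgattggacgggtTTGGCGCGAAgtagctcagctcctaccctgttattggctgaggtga
Cdc6: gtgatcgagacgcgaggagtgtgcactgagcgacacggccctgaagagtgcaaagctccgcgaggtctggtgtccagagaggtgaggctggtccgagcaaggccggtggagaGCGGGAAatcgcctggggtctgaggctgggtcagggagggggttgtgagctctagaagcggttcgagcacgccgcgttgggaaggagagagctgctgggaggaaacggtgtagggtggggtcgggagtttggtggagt
Rrm2: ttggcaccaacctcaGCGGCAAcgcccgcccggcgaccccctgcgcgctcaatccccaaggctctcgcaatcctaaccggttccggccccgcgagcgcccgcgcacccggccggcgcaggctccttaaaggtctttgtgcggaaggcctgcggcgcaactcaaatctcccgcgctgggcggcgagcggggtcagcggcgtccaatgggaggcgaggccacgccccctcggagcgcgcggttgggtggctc
Tk1: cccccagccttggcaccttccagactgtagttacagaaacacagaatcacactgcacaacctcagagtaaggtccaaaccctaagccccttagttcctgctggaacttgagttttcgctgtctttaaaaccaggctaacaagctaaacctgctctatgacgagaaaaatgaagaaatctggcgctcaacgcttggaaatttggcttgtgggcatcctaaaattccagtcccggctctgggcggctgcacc
Gins3: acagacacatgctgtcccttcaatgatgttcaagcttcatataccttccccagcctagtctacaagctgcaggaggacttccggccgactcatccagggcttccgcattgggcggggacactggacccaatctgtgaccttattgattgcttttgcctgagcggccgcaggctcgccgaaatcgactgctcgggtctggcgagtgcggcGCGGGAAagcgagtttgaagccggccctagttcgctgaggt
Mcm5 and Mcm6 each carry overlapping 8-letter forms on opposite strands, at -153 and -149 for Mcm5 and at -110 and -106 for Mcm6, by the leftmost base counted from the start, and Mcm6 has another at -47. Cdc6 has 1, at -138, and Gins3 1, at -41. Rrm2 holds only a 7-letter form, at -235, and Tk1, the gene that fell most, has none of these letters in the window.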

How the data were processed

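Total RNA of 5 cell lines, 2 samples each, was labelled with biotin as cRNA and hybridized to arrays, per the labels. The deposited values are probe set intensities on a linear scale; the submitters' processing notes name GCOS 1.3, while no source used here states the signal algorithm, scaling target or background correction. Symbols came from the platform's annotation: 34945 probe sets had 1 symbol, 932 several and 9160 none, and 64 controls were left out of tests.

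Signals were quantile normalized, since trimmed means differed between arrays. A probe set above the 40th percentile of its array on at least 2 arrays was kept, the one with the highest mean deposited signal stood for its gene, and limma 3.58.1 (R 4.3.3) modelled log2(signal + 32) by line (eBayes with trend, 5 residual and 6.97 prior degrees of freedom, Benjamini-Hochberg over 14840 genes). The fit was tested on simulated data. The number of arrays limits the precision.

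Members and lists were chosen with earlier results of these data known. Named genes were all members, with values on every array for the 10 largest mean changes, the 8 smallest F p-values and 12 set names, and up to 4 called genes per other list plus 8 set names, 1 of which is not reported here. Alternatives covered scaling, pseudocount (8 or 4 times the main one), filter, probe sets, prior, replicate block, arrays and lines left out, and line means. Replicate numbers did not pair the samples, so the block stayed an alternative.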

Additional observations from a re-analysis of the deposited data

Results flagged for a closer look

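In 6 of the 42 measured genes at least 1 relapse line lay above E (limma adjusted p under 0.05, no fold minimum) while M3 fell. The share of all genes with this pattern is not given here, so whether 6 is many cannot be told. Taken singly, 28.6% of all genes were above E in M1, 28% in M2 and 29.5% in M4, and 11.7% fell in M3. Because the genes were chosen by that pattern, the differences between those lines and M3 follow in part from the choice and are given as a description, with no test. For Ccne2, encoding cyclin E2, M4 exceeded M3 by 3.59 on the log2 scale, M2 by 3.38 and M1 by 3.30. Rrm1, the large reductase subunit, was higher in M4 than in M3 by 2.81, and Rfc5, of the clamp loader, by 2.53. Cdc45, a part of the active helicase, was higher in M1 than in M3 by 2.35, and Rpa2 by 1.65. Gmnn, the licensing inhibitor, was higher than in M3 by 1.99 in M1 and by 1.98 in M2. Lines of 2 arrays were not tested for outlying arrays.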

How the results depend on the processing

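The fall of 35 genes in M3 stayed at 35 with each array left out and was 39 with deposited scaling. Single calls in M3 were lost at other settings, where the counts are not given here. These were Rpa2, Tyms and E2f1 with the larger pseudocount, Tyms with a floor of 64, and Cdc45, Chaf1b and E2f1 with the mean of probe sets. The counts in other contrasts moved more. Below, L and H stand for genes lower and higher than E. Shares of all genes are printed below only for counts without a fold minimum. Some of the others stand in the Results above, and the rest are not given, so those counts have no background beside them. Without a fold minimum the mean had 37 L and 5 H (29.5% and 31.4% of all genes). At that setting M1 had 25 and 8 (27.4% and 28.6%), M2 29 and 6 (27.4% and 28%), and M4 20 and 6 (27.9% and 29.5%). With deposited scaling L was 26 in the mean, 1 in M1, 6 in M2 and 11 in M4, and H was 0 in M1, M2 and M4. With the larger pseudocount L was 3 in the mean and 0 in M2, and H was 0 in M1 and M2. H was 0 in M1 with a common trimmed mean and with hybridization controls, and L was 1 in M2 with those controls and with the mean of probe sets. With each probe set counted L was 13 in the mean, 1 in M1, 4 in M2 and 1 in M4. The mean had 17 L without line M1, 14 without M2, 18 without M4, and 0 L and 1 H without M3. Fits on line means counted both directions: 0 were called with all 5 lines, and 1 with each probe set counted. Without M3 the fit on line means called 1, and Ccne2 (1.20, a rise) was then the only gene past 2-fold. Leaving out 1 array gave 6 to 10 L in the mean, 0 to 1 L and 0 to 1 H in M1, and 1 to 4 L in M2.

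For other lists, L in the mean was, without a fold minimum, 28 of other replication, 10 of nucleotide synthesis, 18 of G1/S and 25 of mitosis genes (29.5% of all genes), and in M3 11 of nucleotide synthesis and 20 of G1/S genes (28.3% of all genes). With deposited scaling these were 16, 3, 11 and 14 in the mean, and 8 of nucleotide synthesis in M3. With the larger pseudocount they were 3 of other replication, 2 of G1/S and 3 of mitosis genes, and 3 of nucleotide synthesis in M3. Nucleotide synthesis had 2 with a common trimmed mean, hybridization controls, a pseudocount of 8, a floor of 64 or without M1, 3 with each probe set and 0 without M3. Mitosis had 12 without M1, 8 without M2, 3 without M3 and 10 without M4; leaving out 1 array gave 4 to 6.

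Some small changes turned sign. In the mean Orc1 was -0.18, Cdt1 -0.018 and Ccne2 -0.04 with deposited scaling, Ccne2 -0.0018 without line M4, and Gmnn 0.094, Cdc45 0.20 and Rpa2 0.16 without M3. Gins3 in M3 was -0.44 with deposited scaling, -0.043 with a common trimmed mean, -0.093 with hybridization controls, -0.012 with the mean of probe sets and, with 1 array left out, -0.0082 (without E replicate 1) to 0.13. Beyond those given, the cause was not tested. The replicate numbers are shared only as numbers: with the replicate block the counts were 6 L in the mean and 35 L in M3, as without it. Signals near background, as for Tyms, limit fold changes.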
